A study of Mus musculus with 2 samples.

Results

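The genes described here are 9 members of the neurexin, neuroligin and LRRTM families of synapse organisers: Nrxn2 and Nrxn3, Nlgn1, Nlgn2 and Nlgn3, and Lrrtm1 to Lrrtm4. They were taken by gene symbol from the 24015 gene rows of the deposited count tables, and all 9 were listed. RNA came from J-RGCs, the ganglion cells of the retina that are defined by Jam2, also called JAM-B. They were sorted from mouse retina at postnatal day 6 by magnetic beads and flow cytometry from a transgenic line that expresses green fluorescent protein in this type. The 2 libraries, A and B, came from different litters and each pooled 5 to 6 animals. The promoter that drives the reporter, the strain and the sex of the animals could not be taken from the labels. The study holds 1 cell type at 1 age, so levels can be set against each other between genes or between the 2 libraries and not between conditions.

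Neurexins are presynaptic membrane proteins that reach across the synaptic cleft to several kinds of postsynaptic partner. Neuroligins are one such kind: neuroligin 1 is found mainly at excitatory synapses, neuroligin 2 at inhibitory synapses, where it binds the scaffold gephyrin, and neuroligin 3 at both. LRRTMs are leucine-rich repeat proteins of excitatory postsynaptic sites. LRRTM1 and LRRTM2 bind neurexins through the protein domain that neuroligins also use, whereas LRRTM4 binds heparan sulfate chains, for example on glypicans. Retinal ganglion cells receive excitatory synapses from bipolar cells and inhibitory ones from amacrine cells on their dendrites, and form excitatory synapses of their own in the brain, so both sides of these protein pairs can be made in the same cell. Each neurexin gene makes long (alpha) and short (beta) forms from separate promoters, and counts per gene do not tell the forms or their splice variants apart.

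Reads assigned to genes numbered 7916204 in library A and 13744313 in library B. Levels are given as counts scaled to a gene total of 1000000 (CPM) and, wherever genes are set against each other, as CPM per kilobase of merged exon. A count of 0 allows up to 0.379 CPM in A and 0.218 CPM in B (3 counts), for counting error only. All 10 ganglion cell marker genes examined exceeded 100 CPM in both libraries, and their median was 201 CPM per kilobase in A and 241 in B. The highest of them per length were Nefl (light neurofilament) at 3542 and 6087 CPM and Nefm (medium neurofilament) at 1881 and 3160 CPM. Among markers of other retinal cells, the microglial list had the highest median per length, 9.59 in A and 10.3 in B, led by P2ry12 (85.4 and 85.3 CPM) and Csf1r (80.1 and 87.2 CPM). The other 6 marker lists had medians of 0.147 to 1.52 CPM per kilobase in either library. Among their leading members were Gad2 and Tfap2b for amacrine cells, Prkca and Grm6 for bipolar cells, Onecut1 and Calb1 for horizontal cells, Pde6b for photoreceptors, Glul and Slc1a3 for glia, and Rgs5 and Pdgfrb for vessels. Reads of the 9 genes from such cells were not told apart from those of J-RGCs.

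All 9 synapse organisers were read in both libraries, from both sides of the synapse. Each reached at least 1 CPM in A and in B, a level passed by 46.8% of all gene rows, and 8 of the 9 reached 10 CPM in both, against 27.8% of gene rows. The 4 genes that passed 100 CPM in both libraries, against 6.53% of gene rows, were Nrxn3, Nlgn1, Nlgn3 and Lrrtm2. The median over the 9 was 8.82 CPM per kilobase in A and 13.9 in B, beside 1.50 and 2.27 over the 16791 genes with a count and a known length. Since all 9 were detected, the closer background is the 11166 genes of known length that reached 1 CPM in both libraries. Their median was 3.96 in A and 5.18 in B. In bulk RNA, fewer cells that use a gene and less of its RNA in each cell cannot be told apart.

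**Figure D1:**
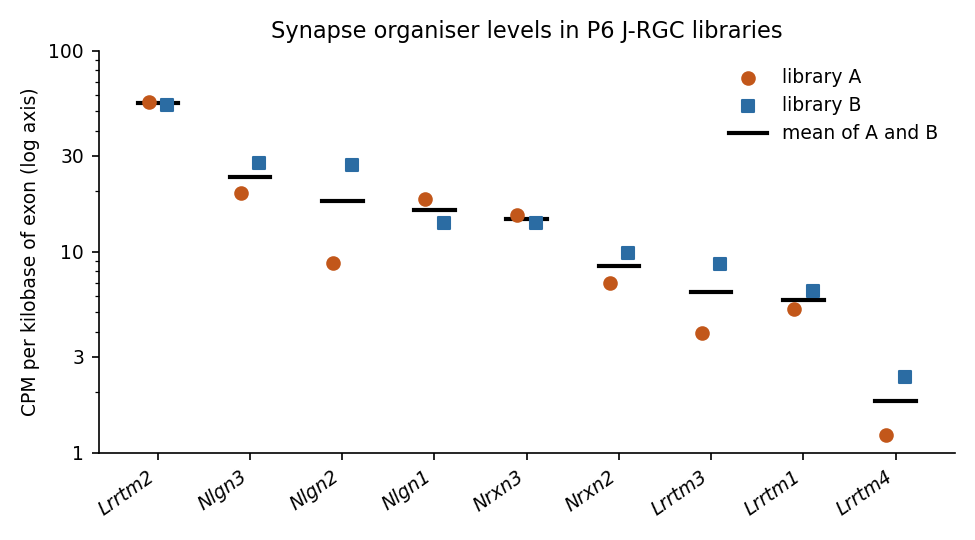
CPM per kilobase of merged exon (log axis) of the 9 genes in library A (circles) and library B (squares), with the mean of both as a bar, ordered by that mean. Lrrtm2 stands highest at 55.6 and 53.8 and Lrrtm4 lowest at 1.23 and 2.39, while Nlgn2 has the widest gap between its 2 points.

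On the presynaptic side, Nrxn3 had 1518 counts in A and 2400 in B, which is 192 and 175 CPM. Nrxn2 had 769 counts in A and 1879 in B, which is 97.1 and 137 CPM. Per length Nrxn3 stood above Nrxn2 in both libraries, at 15.2 and 13.9 CPM per kilobase against 7.03 and 9.90. The ratio of their mean levels per length was 1.72-fold, with a 95% interval of 0.707 to 4.17 from counting error and the spread between the libraries, so the 2 genes were not separated. Both values rest on merged exon lengths of 12.6 kb for Nrxn3 and 13.8 kb for Nrxn2, which join exons of 13 and 18 annotated transcripts. The longest single transcripts are 7.92 and 6.67 kb.

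The neuroligins were not separated from each other over both libraries. Nlgn3 had 1433 counts (181 CPM) in A and 3510 (255 CPM) in B, and 19.5 and 27.5 CPM per kilobase. Nlgn1 had 1946 counts (246 CPM) in A and 2562 (186 CPM) in B, and 18.3 and 13.9 CPM per kilobase. Nlgn2, the neuroligin of inhibitory synapses, had 404 counts (51.0 CPM) in A and 2135 (155 CPM) in B, and 8.82 and 26.9 CPM per kilobase. Library A thus placed Nlgn2 last of the neuroligins, while B placed it beside Nlgn3 and above Nlgn1. Over both libraries Nlgn3 was 1.32-fold of Nlgn2 (95% interval 0.516 to 3.37) and 1.46-fold of Nlgn1 (0.578 to 3.70), and Nlgn2 was 1.11-fold of Nlgn1 (0.434 to 2.83). None of these 3 intervals excluded 1. As a share of the neuroligin total per length, Nlgn3 took 41.8% in A and 40.3% in B, Nlgn1 39.3% and 20.3%, and Nlgn2 18.9% and 39.3%. Nlgn3 held nearly the same share in both libraries, and the other neuroligins traded places.

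Among the LRRTMs a single gene carried most of the level. Lrrtm2 had 2649 counts in A and 4454 in B, which is 335 and 324 CPM, and 55.6 and 53.8 CPM per kilobase. Its level differed by 1.03-fold between the libraries, the narrowest gap of the 9 genes under this scaling. Lrrtm2 made up 84.2% of the LRRTM total per length in A and 75.5% in B. Lrrtm1 had 125 counts (15.8 CPM) in A and 266 (19.4 CPM) in B. Lrrtm3 had 133 counts (16.8 CPM) in A and 510 (37.1 CPM) in B. Lrrtm4, an LRRTM that binds glypicans, was the lowest of the 9 genes, with 60 counts (7.58 CPM) in A and 202 (14.7 CPM) in B. Per length the mean levels were 5.79 ± 0.831 CPM per kilobase for Lrrtm1, 6.34 ± 3.38 for Lrrtm3 and 1.81 ± 0.819 for Lrrtm4, beside 54.7 ± 1.24 for Lrrtm2 (SD, n = 2). The 3 lower genes summed to 10.4 CPM per kilobase in A and 17.5 in B.

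The LRRTM order held up against the spread between libraries at its top. Lrrtm2 was 9.44-fold of Lrrtm1 (95% interval 3.50 to 25.5), 8.63-fold of Lrrtm3 (3.26 to 22.8) and 30.2-fold of Lrrtm4 (10.3 to 88.5), and these 3 intervals excluded 1 in either library alone and with other lengths. Lrrtm3 and Lrrtm1 were not separated (1.09-fold, 0.399 to 3.0), and their order differed between the libraries, with log2 ratios of -0.40 in A and 0.45 in B. Lrrtm3 exceeded Lrrtm4 3.50-fold (1.17 to 10.4) and Lrrtm1 exceeded Lrrtm4 3.20-fold (1.05 to 9.70). Neither of these calls held with the longest transcript as the length, at log2 ratios of 1.46 and 1.24 in place of 1.81 and 1.68, nor in a single library. At 1 library the interval is wider by construction, since the dispersion is kept.

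**Figure D2:**
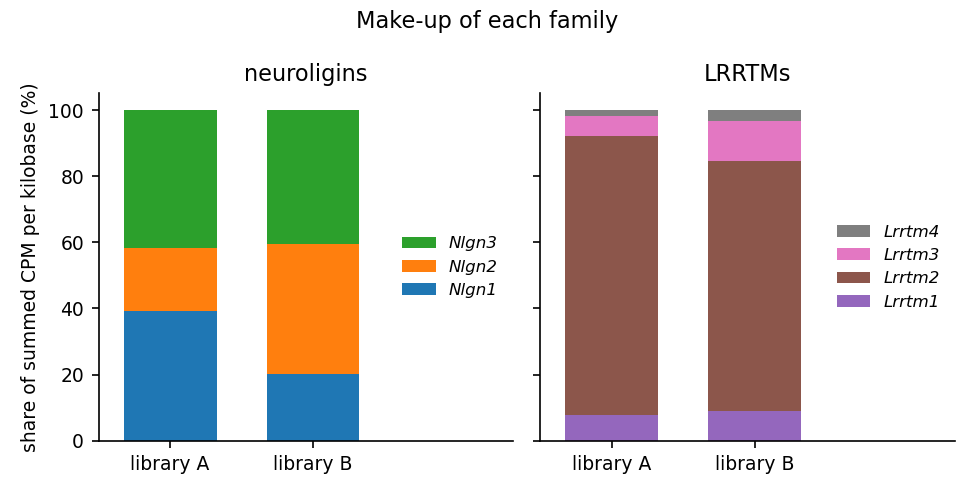
Share of the summed CPM per kilobase of the neuroligins (left) and of the LRRTMs (right) taken by each gene in library A and library B, as stacked bars from 0. Lrrtm2 fills 84.2% and 75.5% of the LRRTM bars, while Nlgn1 and Nlgn2 trade places between the libraries at 39.3% and 20.3% for Nlgn1 and 18.9% and 39.3% for Nlgn2.

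Set in one order per length, Lrrtm2 came first, followed by Nlgn3 (23.5 ± 5.67 CPM per kilobase), Nlgn2 (17.8 ± 12.7), Nlgn1 (16.1 ± 3.13), Nrxn3 (14.5 ± 0.962), Nrxn2 (8.47 ± 2.03), Lrrtm3, Lrrtm1 and Lrrtm4 (SD, n = 2). Of the 36 pairs, 33 stood in the same order in A and B, and the interval of the ratio excluded 1 for 20. These intervals were not adjusted for their number. Of the 8 pairs of neighbours in this order 1 was separated, Lrrtm1 over Lrrtm4, and that one did not hold with other lengths, as given above. Lrrtm2 over Nlgn3 was 2.32-fold with an interval of 0.906 to 5.96, so the first gene was not separated from the next. It was separated from Nlgn2 (3.07-fold, 1.18 to 7.94), Nlgn1 (3.40-fold, 1.32 to 8.71), Nrxn3 (3.76-fold, 1.49 to 9.52) and Nrxn2 (6.46-fold, 2.59 to 16.1). At the other end Lrrtm4 lay below each of the other 8 genes, from 4.67-fold under Nrxn2 (interval 1.65 to 13.2) to 13.0-fold under Nlgn3 (4.48 to 37.7) outside its own family. The summed neuroligins stood at 46.7 CPM per kilobase in A and 68.3 in B, and the summed LRRTMs at 66.0 and 71.3.

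**Figure D3:**
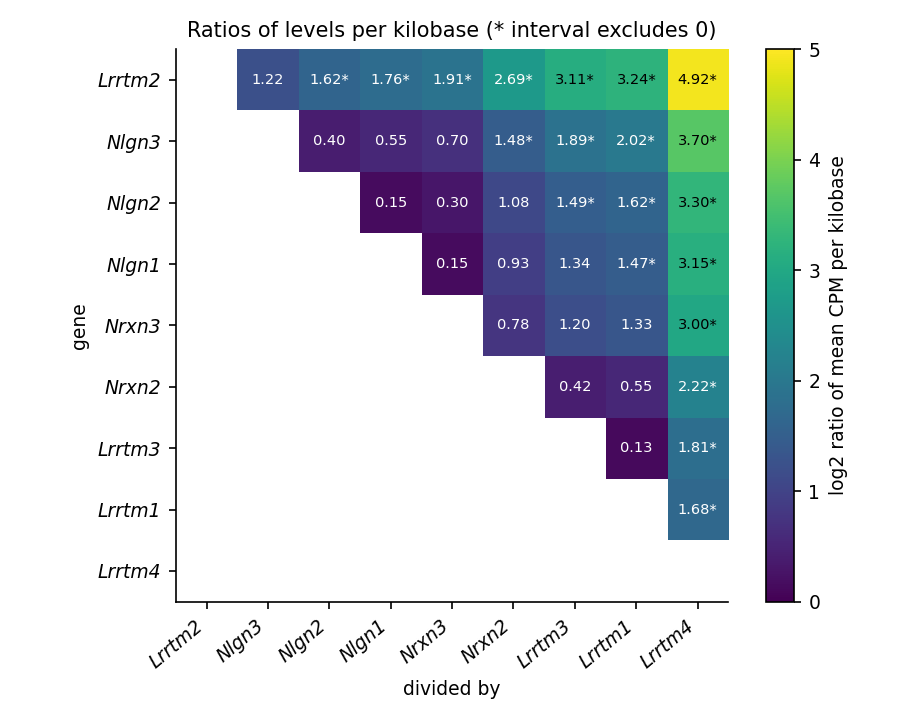
Log2 ratio of the mean CPM per kilobase of the gene in each row over the gene in each column, for all 36 pairs, with an asterisk where the 95% interval excludes 0. Asterisks fill the Lrrtm4 column and the Lrrtm2 row apart from Nlgn3 (1.22), and the neuroligin and neurexin block between them holds 1, for Nlgn3 over Nrxn2 (1.48).

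The 3 genes of at least 10 counts nearest to Lrrtm2 in level per length over both libraries, among 13093 searched, were Klf7 (54.6 and 53.6 CPM per kilobase), a zinc finger transcription factor, Rora (55.4 and 55.7), a nuclear receptor, and Scn2a1 (57.7 and 53.1), a sodium channel subunit. With 2 libraries this likeness is one of level and gap alone.

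The level of 7 of the 9 genes was within 2-fold between A and B, beside 70.0% of the 7769 genes with a mean of at least 10 CPM. By an exact binomial test of A against B on the reads, with Benjamini-Hochberg adjustment over 14107 genes, 2 of the 9 differed with an adjusted p under 0.05 and at least 2-fold, against 44.5% of all genes tested. Both were lower in A (33.6% of all genes tested) and none was higher in A (10.9% of all genes tested). The test sets library against library and bears on no condition. Nlgn2 had a log2 ratio of A over B of -1.61 (adjusted p = 1.43e-115, exact binomial test), which is 3.04-fold lower in A. Lrrtm3 had -1.14 (adjusted p = 1.75e-17, exact binomial test), or 2.21-fold lower in A. Lrrtm4 lay just inside 2-fold at -0.96, and Nlgn3 and Nrxn2 stood at -0.50 and -0.49. Lrrtm1 stood at -0.29, Lrrtm2 at 0.05, Nrxn3 at 0.14 and Nlgn1 at 0.40.

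All genes tested had a median log2 ratio of -0.57 between the libraries, and the median of the 9 was -0.49. TMM scaling, which sets the bulk of genes level, moved every ratio by 0.38 towards A and left medians of -0.18 over all genes tested and -0.11 over the 9. Under it Nlgn2 stayed below 0 at -1.22 and was the 1 gene still called lower in A (24.0% of all genes tested), Lrrtm3 stood at -0.76 and was no longer called, and none was called higher in A (15.4%). The largest ratios in the other direction were then 0.78 for Nlgn1 and 0.52 for Nrxn3. With DESeq2 size factors Nlgn2 stood at -1.13 and Lrrtm3 at -0.67, and Nlgn2 alone was called. The share of all genes called with these factors is not given here. Lrrtm1 turned to 0.09 under TMM. Against the spread expected between replicate libraries, the 95% interval of the ratio held 0 for all 9 genes under both total-count and TMM scaling. For Nlgn2 it ran from -3.34 to 0.13 and for Lrrtm3 from -3.04 to 0.76. The spread was itself estimated over many genes from the differences between these same 2 libraries, which makes the intervals wide. An interval that holds 0 thus does not show that a gene was alike in A and B. The share of all genes with such an interval is not given here. Nlgn2 and Lrrtm3 were among 7 of the 9 genes that differed beyond counting noise once the 2-fold threshold was left out. The share of all genes that did so is not given here either. The intervals cannot decide whether Nlgn2 or Lrrtm3 differed beyond replicate spread.

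**Figure D4:**
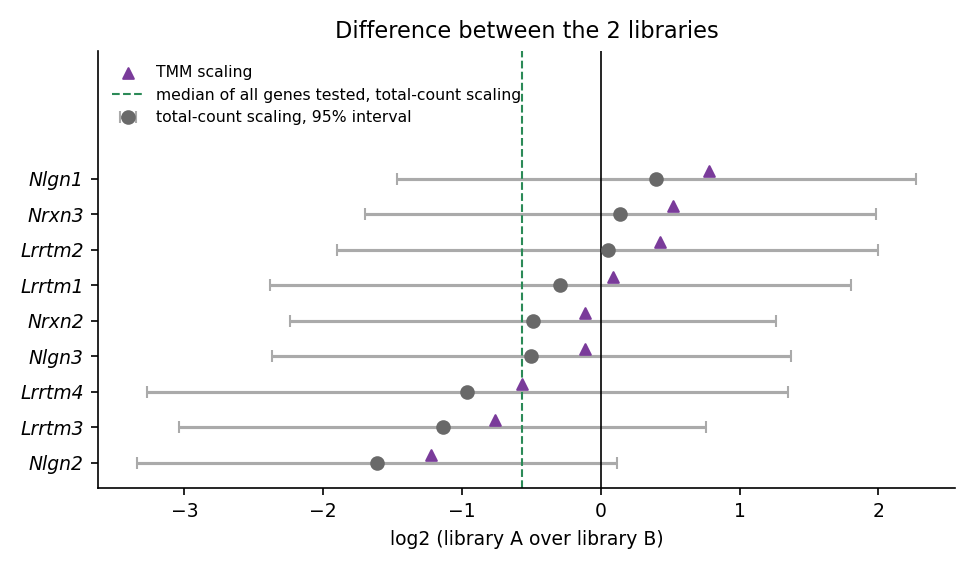
Log2 ratio of library A over library B for the 9 genes with total-count scaling (circles, with the 95% interval from counting error and trended dispersion) and with TMM scaling (triangles), with the median of all genes tested (-0.57) as a dashed line. Nlgn2 (-1.61) and Lrrtm3 (-1.14) lie lowest, and every interval crosses 0.

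Base composition and markers of other cells were set beside the difference of Nlgn2. Its longest transcript is 60.7% G and C, and the 404 genes of at least 10 CPM within 2.5 percentage points of that had a median log2 ratio of -0.39, a difference of -1.21 for Nlgn2. Nrxn2, at 62.4% the richest in G and C of the 9, lay near the median of its own window (-0.49 against -0.42). Over all such genes the median was -0.43 in the fifth richest in G and C and -0.26 in the fifth poorest in them. The summed CPM of marker lists was 225 in A and 256 in B for microglia, 126 and 108 for amacrine cells, 231 and 104 for bipolar cells, 104 and 135 for glia, 14.5 and 30.5 for horizontal cells, 30.9 and 26.6 for photoreceptors and 400 and 109 for vessel cells. The bipolar sum includes Grm6 at 96.4 and 0.582 CPM, and the vessel sum Rgs5 at 342 and 82.4 CPM. Of the 3 horizontal cell markers tested, Onecut1 (19 and 182 counts) and Calb1 (33 and 156 counts) were called lower in A under both scalings. Of all genes tested 33.6% were so called, and 24.0% with TMM scaling. The others of the list, named after their values were seen, were Prox1 and Lhx1. Prox1 (63 and 81 counts) went the other way with a log2 ratio of 0.43 and was not called, and Lhx1 had 0 counts in both libraries. Of the 10 ganglion cell markers 2 were called lower in A, beside 33.6% of all genes tested: Pou4f2 (486 and 1011 CPM) and Thy1 (333 and 679 CPM). Jam2, which defines J-RGCs, stood at 2344 and 1203 CPM and was not called. With TMM scaling Jam2 was called higher in A (15.4% of all genes tested) and no ganglion cell marker lower (24.0%). The part of base composition and of these markers and cells in the differences of Nlgn2 and Lrrtm3 was not tested.

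The promoters shown are those of Nlgn2 and Lrrtm3, the genes that differed most between the libraries, and that of Nlgn1, which changed places with Nlgn2. Each is the 250 bases before a RefSeq transcription start on GRCm38.p6, a later build than the mm9 of the counts. RefSeq promoters were at hand for 6 of the 9 genes. Capitals mark GC boxes (GGGCGG on either strand). The windows are chr11:69837785-69838034 for Nlgn2, chr10:64090256-64090505 for Lrrtm3 and chr3:26331910-26332159 for the upstream start of Nlgn1, all on the minus strand and written in the direction of transcription.
Nlgn2: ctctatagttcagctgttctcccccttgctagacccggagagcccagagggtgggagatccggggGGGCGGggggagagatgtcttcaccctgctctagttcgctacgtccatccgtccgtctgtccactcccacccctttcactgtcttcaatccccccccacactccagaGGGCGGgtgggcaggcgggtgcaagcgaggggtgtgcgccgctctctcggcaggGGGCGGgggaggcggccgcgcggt
Lrrtm3: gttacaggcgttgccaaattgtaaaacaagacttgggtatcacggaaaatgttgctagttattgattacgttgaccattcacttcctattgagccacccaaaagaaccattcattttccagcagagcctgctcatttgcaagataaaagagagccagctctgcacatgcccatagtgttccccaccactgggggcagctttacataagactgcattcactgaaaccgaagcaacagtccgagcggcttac
Nlgn1: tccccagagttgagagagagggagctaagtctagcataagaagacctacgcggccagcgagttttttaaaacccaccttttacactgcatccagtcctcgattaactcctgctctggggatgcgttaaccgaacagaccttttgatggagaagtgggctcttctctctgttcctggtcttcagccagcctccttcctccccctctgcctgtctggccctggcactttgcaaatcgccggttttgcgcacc

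The Nlgn2 window is 67.6% G and C with 18 CpG dinucleotides and 3 GC boxes, beside a median of 52.4% and 6 CpG over 32851 promoters of the same length, of which 32.7% hold a GC box. The Lrrtm3 window is 46.0% G and C with 6 CpG, and the Nlgn1 window 53.6% with 9. Neither holds a GC box, and none of the 3 holds a TATA box (TATAAA, either strand, in 12.4% of promoters). E-boxes (CANNTG, either strand, in 66.2% of promoters) were found once in the Nlgn2 window, 2 times in that of Lrrtm3 and not in that of Nlgn1. Part of the neuronal silencer element RE1 (TTCAGCACC, either strand, in 0.301% of promoters) was in none of the 3 and once before a second RefSeq start of Nlgn1. These are matches of letters, and no binding was measured.

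Several of these genes share their locus with others, which matters because the strand setting of the counting is not given. In the GENCODE M21 annotation Lrrtm1 lies inside Ctnna2, Lrrtm2 inside Ctnna1 and Lrrtm3 inside Ctnna3, each on the opposite strand of its host, an alpha-catenin gene. Ctnna1 stood at 9.73 and 22.4 CPM, far below the 335 and 324 CPM of the Lrrtm2 within it, and shares 95 bases of exon with it. Ctnna3 had 0 counts in A and 12 in B, or 0.873 CPM in B, beside 16.8 and 37.1 CPM of Lrrtm3. Ctnna2 is the reverse case, with 155 and 196 CPM beside 15.8 and 19.4 CPM of Lrrtm1, so without strand reads from unspliced Ctnna2 RNA and from Lrrtm1 cannot be told apart. Ctnna1 and Ctnna3 were also called lower in A by the binomial test (33.6% of all genes tested), Ctnna1 with a log2 ratio of -1.20. With TMM scaling Ctnna3 alone was (24.0%). Nrxn2 shares 682 bases of exon with Slc22a12, a transporter gene on the other strand that stood at 96.5 CPM in A and 0.946 in B. The part of that gene's reads in the Nrxn2 count was not tested. The largest exon overlap was on the same strand, where Gm21986 shares 3823 bases with Nlgn3, of 9.27 kb of merged exon. A strand setting would not tell these apart. On the other strand Gm4409 shares 1543 bases of exon with Lrrtm4, and A830092H15Rik shares 1229 with Nlgn1. No counts were at hand for these overlapping genes, and their part in the member counts was not tested.

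The partners of these proteins were described from lists of genes with known roles. Among 17 other ligands of neurexins there were 10 detected genes and 3 that passed 100 CPM in A and in B, with a median of 1.57 CPM per kilobase in A and 0.536 in B. The highest per length were the calsyntenins Clstn1 (267 and 401 CPM) and Clstn2 (255 and 351 CPM), adhesion molecules of the cadherin superfamily, and Dag1, which encodes dystroglycan (110 and 110 CPM). Of the cerebellins, secreted proteins that bridge neurexins and delta-type glutamate receptors, Cbln2 stood at 6.95 and 10.9 CPM and Cbln4 at 12.8 and 6.40. The neurexophilin gene Nxph2 had 0 counts in both libraries. In A against B 2 of the 12 genes tested were called higher and 3 lower, beside 10.9% and 33.6% of all genes tested. With TMM scaling 3 were called higher and 3 lower, beside 15.4% and 24.0%.

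The MDGAs bind neuroligins and keep them from neurexins. Mdga2 was high, at 925 and 816 CPM or 50.4 and 44.5 CPM per kilobase, above each neuroligin in both libraries, whereas Mdga1 stood at 4.93 and 5.38 CPM. Of the 6 glypicans 4 were detected, and none reached 100 CPM in both libraries. Gpc6 (45.0 and 70.1 CPM) and Gpc1 (13.5 and 30.9 CPM) led per length, followed by Gpc5 (5.43 and 4.66 CPM), and Gpc4, the best known glypican partner of LRRTM4, was the lowest detected at 1.77 and 1.53 CPM. The LAR-type phosphatases, the other large group of presynaptic organisers, were all 3 detected: Ptprd stood at 665 and 773 CPM, Ptprs at 197 and 239 and Ptprf at 40.2 and 71.4. Of the glypicans 3 of 6 were called lower in A, beside 33.6% of all genes tested, and 2 with TMM scaling, beside 24.0%, while no MDGA or phosphatase gene was called under either.

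Of 17 other postsynaptic organisers with leucine-rich or related domains, 15 were detected and 12 passed 10 CPM in both libraries. Their median was 4.22 CPM per kilobase in A and 6.88 in B. Lrrc4c (netrin-G ligand 1) led at 243 and 184 CPM, then Slitrk6 at 138 and 155 CPM and Lrfn5 at 134 and 198 CPM, and Slitrk2 was the lowest detected per length at 8.97 and 8.22 CPM. Of the 17, 6 were called lower in A and none higher, beside 33.6% and 10.9% of all genes tested. With TMM scaling 3 were called lower and 1 higher (Lrfn3), beside 24.0% and 15.4%, so neither share of lower calls stood far above that of all genes.

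The cytoplasmic partners stood higher still. All 7 genes that encode proteins of the neurexin tail or of its release machinery were detected, with a median of 72.6 CPM per kilobase in A and 47.6 in B. Cask, the kinase-like scaffold that binds the neurexin tail, reached 1223 and 838 CPM and Lin7a 246 and 338 CPM, while Lin7b was lowest at 1.77 and 2.26 CPM. None of the 7 was called between the libraries, beside 44.5% of all genes tested, and with TMM scaling Lin7c alone was, as higher in A (15.4% of all genes tested). All 13 scaffold genes of the postsynaptic side passed 10 CPM in both libraries, with a median of 12.7 CPM per kilobase in A and 13.6 in B. Dlg2 (PSD-93) stood at 1462 and 2163 CPM and Shank1 at 636 and 444 CPM. Shank3 was the lowest of the list per length at 10.4 and 41.0 CPM and was called lower in A under both scalings. Shank2 was so called with total-count scaling alone. In all, 2 of the 13 were called lower and 1 higher, beside 33.6% and 10.9% of all genes tested. With TMM scaling 1 was called lower and 1 higher, beside 24.0% and 15.4%. Gphn, the gephyrin gene, named after its values were seen, stood at 138 and 154 CPM.

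All 10 splicing factors tied to the neurexin splice sites were detected, and their median was 23.5 CPM per kilobase in A and 26.9 in B. Celf4 (1347 and 1510 CPM), Rbfox1 (306 and 490 CPM) and Rbfox2 (346 and 434 CPM), RNA-binding proteins of neurons, were highest per length. Of the STAR-family factors that act on neurexin splice site 4 in mouse brain, Khdrbs2 was lowest of the list at 7.45 and 13.3 CPM. Khdrbs3, another of them, stood at 18.2 and 37.3 CPM. It was the 1 gene of the 10 called lower in A, beside 33.6% of all genes tested. With TMM scaling none was, beside 24.0%, and none was called higher in A under either scaling. Khdrbs1, of the same family, stood higher at 164 and 176 CPM.

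**Figure D5:**
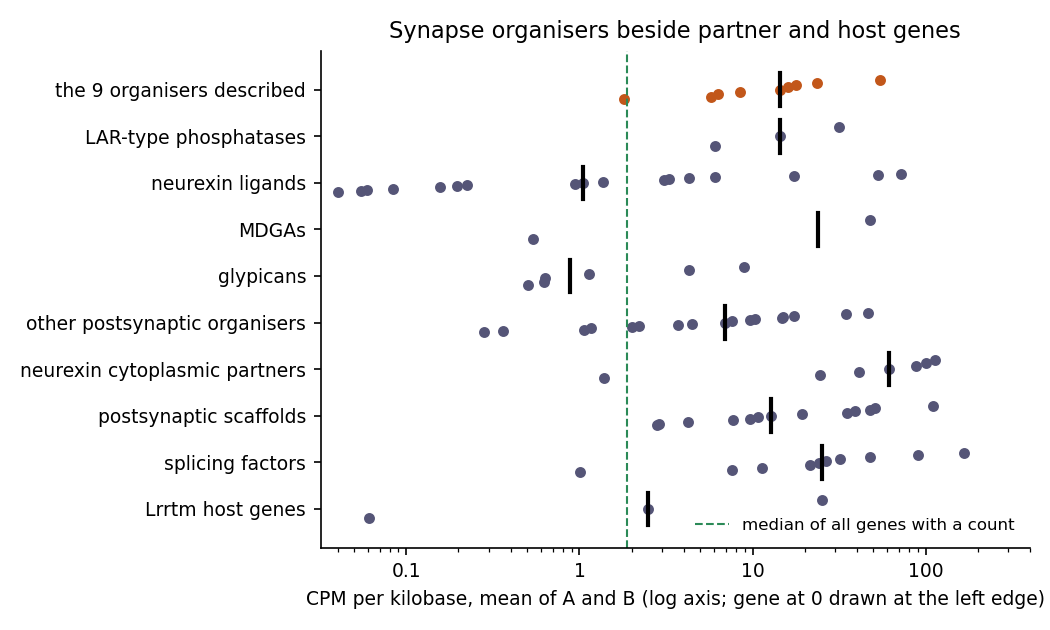
CPM per kilobase (log axis, mean of A and B) of each gene in the 9 described (orange) and in 8 lists of partner genes and 1 of the Lrrtm host genes (grey), with the median of the gene means of each list as a bar and the median of all genes with a count as a dashed line. Cytoplasmic neurexin partners (Cask and Lin7a among them) lie highest as a list, and of the 9 described Lrrtm4 alone lies at the dashed line.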

How the data were processed

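RNA of sorted J-RGCs was sequenced in 2 single-end libraries from amplified cDNA (Nugen Ovation Ultralow V2). The values deposited by the authors are raw counts for each gene symbol. Per the submitters' processing notes, HTSeq 0.6.1, TopHat2 2.0.10, Trimmomatic 0.32 and the mm9 build were used. Annotation, counting mode and strand setting: not given in the sources used here. Gene-assigned reads were 26.8% of library A's file and 30.9% of library B's, and 54.3% and 47.9% lay outside annotated features. The HTSeq summary lines were left out of totals.

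Counts were scaled to CPM and divided by merged exon length from GENCODE M21, matched for 23640 of 24015 symbols. With 1 group there was no contrast for a quasi-likelihood test. The common coefficient of variation between the libraries was 0.507 (edgeR 4.0.16, R 4.3.3, TMM, 11272 genes), and the trended dispersion gave the 95% intervals. A against B was tested across all genes with at least 10 counts by the exact binomial test. DESeq2 1.42.0, Python 3.11.15 and scipy 1.17.1 were also used, and the steps were tested on simulated data. Members, gene lists and the rule for named genes (the 3 highest per length of each list, the lowest detected and those at 0, and 2 per marker list) were chosen with earlier results of these data known. One further gene of the neurexin family and a few genes of the partner and marker lists are not reported here by name.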

Additional observations from a re-analysis of the deposited data

How the results depend on the processing

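All 9 genes were detected at 0.5 CPM, with TMM sizes, with ribosomal RNA-like rows left out of the total and in either library alone. With TMM, 1 gene differed between the libraries in place of 2, lower in A as were 24.0% of all genes tested. DESeq2 size factors gave 1 gene, and leaving out the fold threshold gave 7. For those 2 settings the share of all genes called is not given, so the counts do not set these genes apart. Of the 36 pairs 13 were separated in either library alone, where intervals are wider by construction, in place of 20, and the other settings gave 19 to 21. Of the 20, 11 kept their call in library A alone, where 3 pairs turned round, and 13 in B alone. Without length correction 15 of the 20 kept it and 3 pairs turned round. With the longest transcript as the length, 16 of the 20 pairs kept their call and the median level of the 9 genes was 17.5 CPM per kilobase in place of 11.3. The coefficient of variation was 0.683 over every gene with a count, since that adds genes of few reads.

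The log2 ratio of A over B of Lrrtm1 was 0.09 with TMM and 0.18 with DESeq2 size factors, in place of -0.29, and it was called under none of these. Nlgn2 over Nlgn1 had a log2 ratio of -1.07 without length correction, in place of 0.15, and ranged from -1.05 to 0.95 with 1 library left out. Lrrtm3 over Lrrtm1 ranged from -0.40 to 0.45 with 1 library left out. None of these pairs was separated over both libraries. No paired analysis was possible because there is 1 group. Lrrtm4, with 60 and 202 counts, is the gene most limited by depth.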
